A study of Mus musculus with 16 samples.

Results

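The genes described here are 34 genes of the integrated stress response and of amino acid supply, chosen by name from the genes measured in mouse corpus callosum during cuprizone (CPZ) feeding and after its end. Of the 18737 named genes on the array they had 46 of the 41153 probes, and 33 of the 34 had at least 1 probe. Pycr1, a proline synthesis enzyme, had none. Fgf21, a secreted metabolic hormone, had 2 probes, neither of which was well above background on any array, so 32 of the 34 were tested among 20603 genes, 13982 of them named. CPZ in the chow damages oligodendrocytes, the cells that make myelin, and is widely used as a model of myelin loss followed by repair.

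In the integrated stress response, 4 kinases that sense unfolded protein, missing amino acids, double-stranded RNA or missing haem phosphorylate the translation initiation factor eIF2. Translation slows in general while the messenger of the transcription factor ATF4 is translated more, and ATF4 with its C/EBP partners then drives genes for amino acid import, amino acid synthesis, redox defence and the shut-off of the response itself. The response is known from injured oligodendrocytes and other stressed glia.

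The mice were male C57BL/6 animals, 7 to 8 weeks old by the study's methods, with no transgene or deletion in any group. Total RNA of the affected corpus callosum was labelled with Cy3 and hybridised to single-colour Agilent 4x44K arrays. The untreated group (n = 3 arrays) stayed on normal chow, and the CPZ groups ate powdered chow mixed with the toxin for 2 weeks (n = 3) or 4 weeks (n = 4). The labels give 0.2 to 0.4% CPZ in the chow and the methods 0.2%. The regular diet group (n = 6) returned to normal chow after 4 weeks of CPZ. The study's text names 2 days and 14 days of regular diet, with n = 3 for each, and the labels put all 6 arrays into a single remyelination group without saying which array belongs to which time. These arrays are therefore compared as the 1 group the labels give, and their values are also given array by array.

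The values are log2 signals scaled to each array's 75th percentile and set, probe by probe, relative to the median untreated array, so that 0 is the untreated level and 1 is 2-fold above it. The scanner file recorded under a sample and the sample's column of the processed table held the same array for only 2 of the 16 samples, and for 13 the recorded file belonged to another group. Here the columns of the table were followed, since the numbering of all 16 files matched the order of the columns. Under the recorded assignment 5 of the 32 tested genes were above the untreated mean at 2 weeks and 5 at 4 weeks, and none was called. Between 57.3 and 72.2% of probes were well above background on an array. The defining markers of myelinating oligodendrocytes were present in every group, with all 9 tested markers below the untreated mean at 2 weeks (median log2 difference -3.21) and at 4 weeks (-2.66). In bulk tissue, fewer cells of a type and less RNA per cell cannot be told apart.

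The letters TGATGNAA (TTNCATCA on the other strand) spell the core of the C/EBP-ATF composite element, the site at which ATF4 and a C/EBP partner bind together at target genes. They were searched on both strands in RefSeq promoter windows (build GRCm38.p6) from 250 bases before to 50 bases after each start site, with no other motif searched. Of the 34 genes 30 had a window, and 11 of the 30 (36.7%) held a match: Atf3, Chac1, Trib3, Slc7a11, Asns, Fgf21, Nupr1, Pycr1, Jdp2, Pck2 and Vldlr. Among all 27025 genes with a window 4.51% held one. Some genes have several windows, and counted by window the shares were 28.2% of 39 and 3.97% of 32851. The 34 genes were chosen as members of a response that ATF4 drives. A higher share than among all genes can follow from that choice alone and was not tested further. Cth, Eif4ebp1, Slc7a3 and Slc7a5 are not in the window table. The stretches below are shown because their genes either stood above the untreated arrays on every CPZ array (Trib3, Nupr1, Atf3, Chac1, Pck2), on every array at 2 weeks (Slc7a11), or below them on every array at 2 weeks although the window holds a match (Vldlr). Each is written 5′ to 3′ on the strand of the gene and covers the 250 bases before the start, except Trib3, whose match lies 14 bases after the start and which is given as the 30 bases around it. Capitals mark the match. The positions are chr2:152344028-152344057 (minus strand) for Trib3, chr7:126625471-126625720 (minus) for Nupr1, chr1:191183334-191183583 (minus) for Atf3, chr2:119350992-119351241 (plus) for Chac1, chr3:50443614-50443863 (minus) for Slc7a11, chr14:55540016-55540265 (plus) for Pck2 and chr19:27216770-27217019 (plus) for Vldlr.
Trib3: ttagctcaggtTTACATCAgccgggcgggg
Nupr1: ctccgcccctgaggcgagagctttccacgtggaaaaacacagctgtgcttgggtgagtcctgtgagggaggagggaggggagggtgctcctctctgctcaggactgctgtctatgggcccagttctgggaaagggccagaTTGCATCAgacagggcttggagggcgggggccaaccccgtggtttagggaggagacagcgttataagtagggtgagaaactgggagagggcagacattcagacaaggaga
Atf3: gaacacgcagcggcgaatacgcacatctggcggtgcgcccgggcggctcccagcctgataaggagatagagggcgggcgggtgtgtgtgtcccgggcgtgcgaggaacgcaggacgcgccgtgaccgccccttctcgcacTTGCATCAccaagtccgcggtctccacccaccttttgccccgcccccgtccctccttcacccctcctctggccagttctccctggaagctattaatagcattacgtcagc
Chac1: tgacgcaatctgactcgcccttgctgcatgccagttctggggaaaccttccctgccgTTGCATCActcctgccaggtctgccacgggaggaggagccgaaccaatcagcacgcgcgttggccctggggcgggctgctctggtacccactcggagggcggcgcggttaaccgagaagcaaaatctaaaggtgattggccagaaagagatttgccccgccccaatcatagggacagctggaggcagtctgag
Slc7a11: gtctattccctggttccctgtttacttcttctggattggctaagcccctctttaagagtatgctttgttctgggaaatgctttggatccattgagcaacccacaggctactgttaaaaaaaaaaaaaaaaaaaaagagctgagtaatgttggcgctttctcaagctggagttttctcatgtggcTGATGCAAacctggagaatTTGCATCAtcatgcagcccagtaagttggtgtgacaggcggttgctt
Pck2: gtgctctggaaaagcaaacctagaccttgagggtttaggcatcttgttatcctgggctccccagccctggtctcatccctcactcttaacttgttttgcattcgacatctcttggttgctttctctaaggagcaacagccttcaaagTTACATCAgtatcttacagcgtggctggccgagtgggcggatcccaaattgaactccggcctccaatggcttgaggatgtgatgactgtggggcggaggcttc
Vldlr: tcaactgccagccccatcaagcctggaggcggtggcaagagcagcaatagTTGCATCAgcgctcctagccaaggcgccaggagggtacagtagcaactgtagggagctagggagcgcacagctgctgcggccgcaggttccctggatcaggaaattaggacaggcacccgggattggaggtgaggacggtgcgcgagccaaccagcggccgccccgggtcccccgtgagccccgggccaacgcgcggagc
Slc7a11, which encodes the cystine importer xCT, held 2 matches, whose first bases lie at -66 and -47 from the start. The matches of Nupr1 and Atf3 each began at -110. That of Asns began at -23, and its stretch is not shown although the gene stood above the untreated arrays on every 4-week array. A match describes the letters in the window and not a bound factor.

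**Figure D1:**
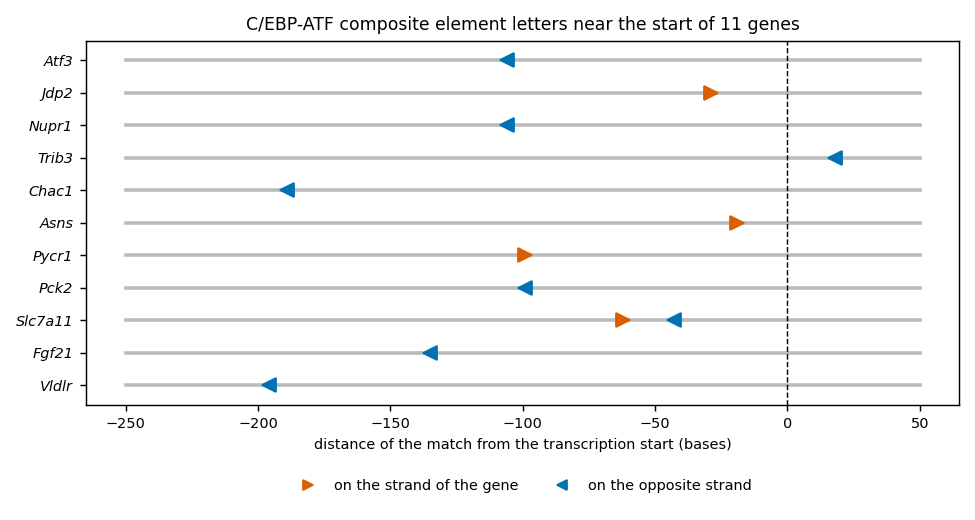
Position of each match of the composite element letters (triangle, centre of the match) in the 11 genes that hold one, in bases from the transcription start (dashed line at 0); grey bars are the windows searched, from 250 bases before to 50 after the start. All matches lie before the start except that of Trib3, and Slc7a11 alone has 2.

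Trib3 and Nupr1 rose on CPZ at both times, and most of the other genes had means above the untreated mean without passing the threshold. At 2 weeks 2 of the 32 tested genes were called higher (adjusted p under 0.05 in limma and at least 2-fold), where 0.0777% of all 20603 genes were, and none was called lower, where 0.126% were. At 4 weeks the same 2 genes, Trib3 and Nupr1, were called higher against 0.102% of all genes, and again none lower against 0.068%. The log2 difference was above 0 for 27 of 32 genes at each time, with a median of 0.92 at 2 weeks and 0.73 at 4 weeks, beside medians of 0.05 and -0.04 over all genes tested. Every CPZ array stood above every untreated array for 20 of the 32 genes at 2 weeks (8.24% of all genes) and for 17 at 4 weeks (5.36%), and for 15 genes at both times (2.46%). Without adjustment, 23 genes had p under 0.05 at 2 weeks (9.6% of all genes did) and 20 at 4 weeks (10.1%). Over all genes 2027 were at least 2-fold higher and 593 at least 2-fold lower at 2 weeks, and 589 and 1785 at 4 weeks. The genes and lists were chosen with earlier results of these data known. Their comparison with all genes is therefore not independent of those results. Both times were set against the same 3 untreated arrays. The labels number the arrays without naming animals, and the methods give 3 to 6 mice per condition, so the p-values measure the spread between these arrays.

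**Figure D2:**
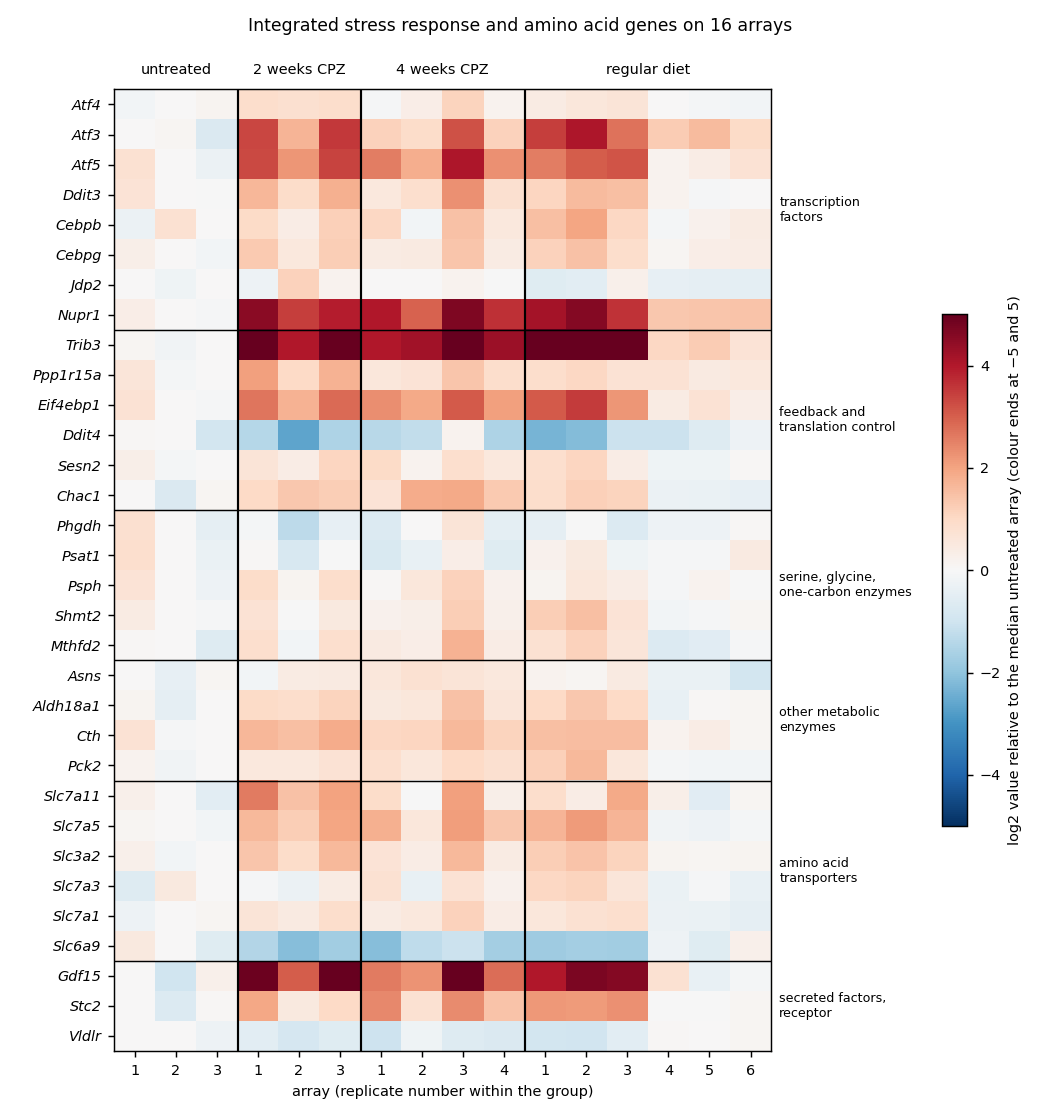
Log2 value relative to the median untreated array (colour, ending at -5 and 5) of the 32 tested genes (rows, grouped by role) on the 16 arrays (columns, replicate numbers within each labelled group). The rows of Trib3, Nupr1 and Gdf15 are darkest on the CPZ arrays, Ddit4, Slc6a9 and Vldlr run the other way, and regular diet arrays 4, 5 and 6 are pale in most rows.

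Among the genes that shut the response off or hold translation down, Trib3, a pseudokinase that binds ATF4 and dampens it, had the largest log2 difference of the 32 at both times on the values scaled here, though not with normexp background correction. Its brighter probe read 0.10, -0.19 and 0 on the untreated arrays, 5.42, 4.01 and 6.06 at 2 weeks, and 4.01, 4.20, 6.06 and 4.27 at 4 weeks. Every CPZ array was thus far above every untreated one, and the 2 CPZ groups overlapped. The rise was 36.6-fold at 2 weeks (log2 5.19, SE 0.62, 95% confidence interval 3.80 to 6.59, limma adjusted p = 0.031) and 25.3-fold at 4 weeks (log2 4.66, SE 0.58, 3.36 to 5.97, adjusted p = 0.038). A second, dimmer Trib3 probe, well above background on 2 of the 3 untreated arrays, gave smaller differences of 2.15 and 1.85 (adjusted p = 0.19 and 0.23), with every CPZ array again above every untreated one. The size of the rise depended on the background correction, and with normexp it was 8.97-fold at 2 weeks (log2 3.17, adjusted p = 0.031) and 6.31-fold at 4 weeks (2.66, adjusted p = 0.056), where the call was lost. Nupr1 was then above it, at 10.8-fold and 9.46-fold. Eif4ebp1 (4E-BP1), which blocks cap-dependent translation, read 0.71, 0 and -0.05 on the untreated arrays, 2.67, 1.73 and 2.83 at 2 weeks and 2.32, 1.88, 3.09 and 2.05 at 4 weeks. Its differences were 2.19 (SE 0.40, adjusted p = 0.071) and 2.11 (SE 0.37, adjusted p = 0.071), neither below the threshold. Chac1, which degrades glutathione, stood at 1.00, 1.35 and 1.24 at 2 weeks and at 0.70, 1.85, 1.88 and 1.31 at 4 weeks, above untreated values of 0, -0.72 and 0.10. The differences were 1.40 (SE 0.35, adjusted p = 0.14) and 1.64 (SE 0.33, adjusted p = 0.089). Ppp1r15a (GADD34), the phosphatase subunit that removes phosphate from eIF2, was 2.70-fold above untreated at 2 weeks (log2 1.43, SE 0.34, adjusted p = 0.13, or 0.71 with normexp) and 1.63-fold at 4 weeks, where the groups overlapped. Sesn2, an inhibitor of mTORC1, differed by 0.63 and 0.56. Ddit4 (REDD1), another mTORC1 inhibitor, lay in the opposite direction, with -1.44, -2.65 and -1.55 at 2 weeks below 0.07, 0 and -0.92 on the untreated arrays. That difference was -1.59 (SE 0.51, adjusted p = 0.27), and at 4 weeks it was -0.71 with overlap, as the third 4-week array read 0.16.

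The calls of Trib3 and Nupr1 sat close to the threshold for the number of arrays. With any 1 of the 3 untreated arrays left out, or CPZ array 1 or 3 of the 2-week group, neither gene was called at 2 weeks, with log2 differences of 4.74 to 5.77 for Trib3 and 3.62 to 4.14 for Nupr1 over all single omissions and adjusted p of up to 0.13 and 0.12. At 4 weeks only Nupr1 was called without untreated array 1, both genes without CPZ array 2, and neither without untreated array 2 or 3 or CPZ array 1, 3 or 4 (adjusted p up to 0.19 for Trib3 and 0.11 for Nupr1). Both genes also lost both calls with all 16 arrays in the limma fit (adjusted p = 0.16 and 0.24 for Trib3, 0.090 and 0.12 for Nupr1). The same held with the replicate number as a block (limma adjusted p = 0.16 for each gene at 2 weeks and 0.14 at 4 weeks). Both calls were lost too in a test over all labelled groups followed by Tukey's comparison, the kind of test the methods name. Tukey's p alone was 0.013 at 2 weeks and 0.017 at 4 weeks for Trib3, and 0.0041 and 0.0034 for Nupr1. The adjusted p, 0.17 for Trib3 and 0.12 for Nupr1 at each time, was that of the test over all groups. That test and the fit of 16 arrays took the 6 regular diet arrays as 1 group, where the study separates 2 and 14 days. Without CPZ array 3 of the 4-week group, the median over the 32 genes at 4 weeks was 0.50, Cebpg differed by 0.36 and Slc3a2 by 0.44. The arrays were hybridised on 4 slides of 4 arrays. With the slide as a fixed block 6 of the 32 genes were called at 2 weeks (Atf3, Atf5, Eif4ebp1, Nupr1, Slc6a9 and Trib3, of which Slc6a9 was lower). At 4 weeks 9 were called (Atf3, Atf5, Eif4ebp1, Mthfd2, Nupr1, Slc6a9, Slc7a5, Stc2 and Trib3, with Slc6a9 again lower). In that fit 0.519% of all genes were called at 2 weeks and 2.01% at 4 weeks, where without the block 0.204 and 0.17% were. With the block the difference at 4 weeks was 39.7-fold for Trib3 (log2 5.31), 25.5-fold for Gdf15 (4.67, adjusted p = 0.062), 9.17-fold for Atf5 (3.20) and 5.84-fold for Atf3 (2.54). Within the single slide that held both untreated and 2-week arrays the median over the 32 genes was 1.02, and within the 2 slides with untreated and 4-week arrays it was 0.64 and 1.46. The value of 1.46 came from the slide of CPZ 4-week array 3, and 0.64 from that of CPZ array 1. No other 4-week array shared a slide with an untreated array, so the blocked differences at 4 weeks lean on these arrays. Without array 3, and without the block, Trib3 was 18.2-fold and Gdf15 6.93-fold above untreated at 4 weeks.

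Of the 8 transcription factors all lay above 0 at both times. Nupr1, a small chromatin-binding stress protein, read 0.32, 0 and -0.07 on the untreated arrays, 4.51, 3.46 and 3.94 at 2 weeks and 3.99, 2.96, 4.66 and 3.66 at 4 weeks. The 2 CPZ groups overlapped each other and lay far above the untreated arrays. The rise was 14.8-fold at 2 weeks (log2 3.88, SE 0.42, 95% confidence interval 2.94 to 4.83, adjusted p = 0.020) and 13.3-fold at 4 weeks (log2 3.73, SE 0.39, 2.85 to 4.61, adjusted p = 0.018). Atf5, a relative of ATF4 that responds to mitochondrial stress, stood at 3.32, 2.21 and 3.37 at 2 weeks and 2.54, 1.83, 4.04 and 2.29 at 4 weeks against 0.74, 0 and -0.31 untreated. Its differences of 2.82 (SE 0.57, adjusted p = 0.088) and 2.53 (SE 0.53, adjusted p = 0.099) did not pass the threshold. Atf3, an immediate stress factor that represses and activates ATF4 targets, stood at 3.35, 1.70 and 3.52 at 2 weeks and at 1.14, 0.92, 3.17 and 1.17 at 4 weeks, with untreated arrays at 0, 0.10 and -0.73. Of the 4 later arrays 3 thus lay below the lowest 2-week array, and the differences were 3.07 (SE 0.66, adjusted p = 0.10) and 1.81 (SE 0.62, adjusted p = 0.31). With normexp they were 1.52 and 0.65 (adjusted p = 0.19 and 0.78). Atf4 itself, which is controlled mainly at translation, differed by 0.87 at 2 weeks (SE 0.28, adjusted p = 0.27), where its arrays read 0.90, 0.81 and 0.87, and by 0.40 at 4 weeks with overlap. Cebpg, a C/EBP partner of ATF4, read 1.30, 0.51 and 1.24 and then 0.41, 0.44, 1.41 and 0.42 on its brightest probe, over 0.30, 0 and -0.13 untreated. It differed by 0.96 (SE 0.33, adjusted p = 0.32) and 0.61 (SE 0.31, adjusted p = 0.58), while its other 2 probes overlapped and 1 of them gave -0.11 at 4 weeks. Ddit3 (CHOP), the factor linked to stress-induced cell death, differed by 1.23 and 0.89, Cebpb by 0.68 and 0.57 (0.0029 at 2 weeks with normexp), and Jdp2 by 0.43 and 0.12, none of them called.

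**Figure D3:**
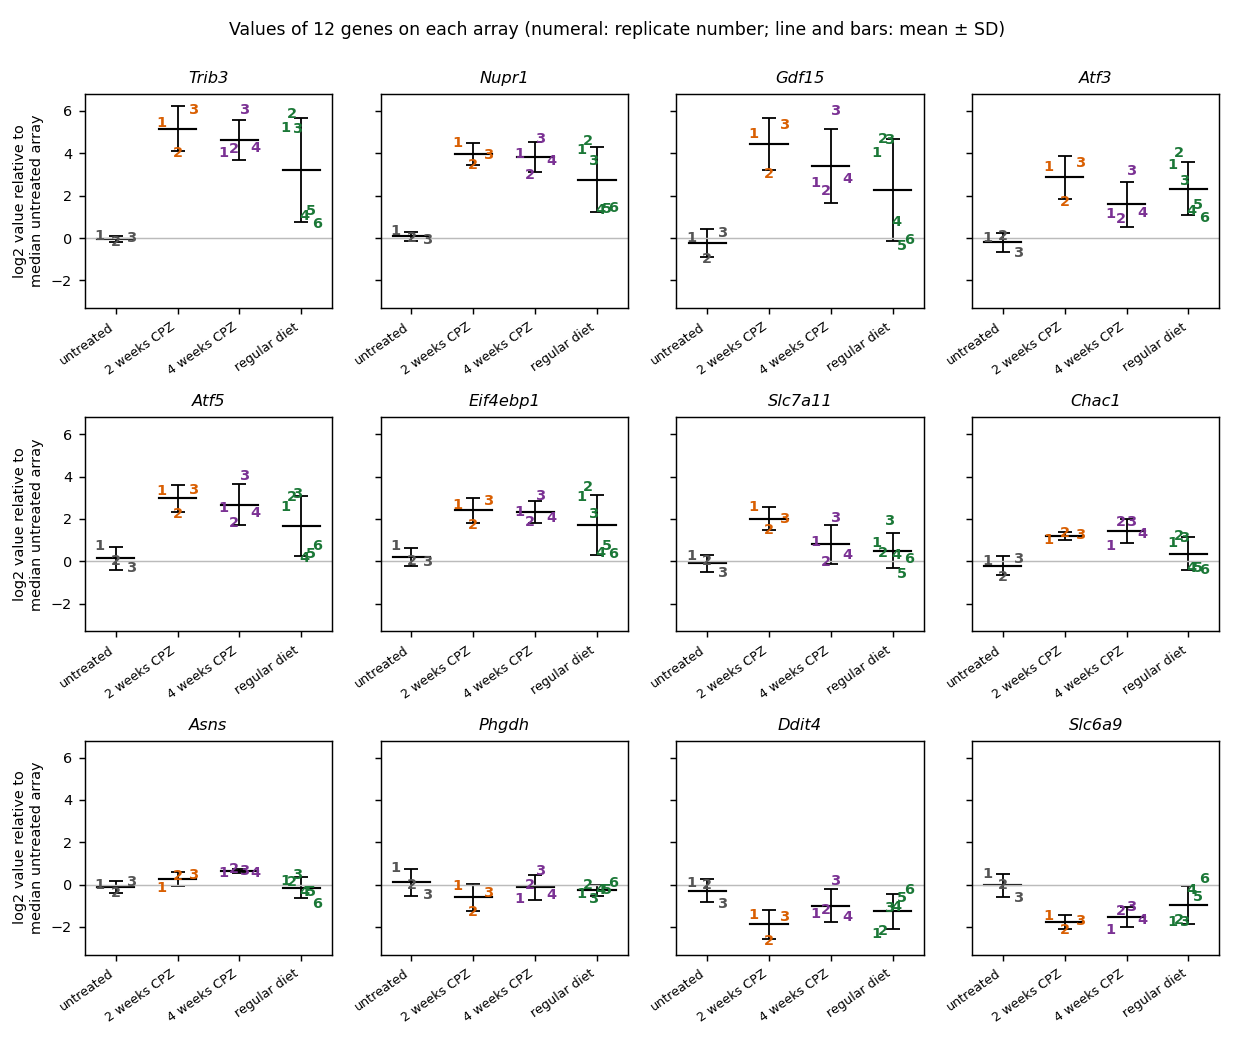
Log2 values of 12 of the genes relative to the median untreated array, on each array; numerals give the replicate number within the labelled group, and the horizontal line with bars is the group mean ± SD (n = 3, 3, 4 and 6). Trib3 and Nupr1 on CPZ lie at 2.96 or higher, and Phgdh overlaps the untreated arrays throughout. Slc6a9 lies lower on every CPZ array, and Ddit4 does so at 2 weeks but overlaps at 4 weeks. The 6 regular diet arrays of Trib3, Gdf15 and Atf5 reach from near the CPZ values down to 0.67, -0.38 and 0.16.

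Of the secreted factors and receptors none was called without a slide block. With the slide as a fixed block Stc2 was called at 4 weeks (2.01% of all genes). With it as a random block Gdf15 was called at 2 weeks (1.23%) and Stc2 at 4 weeks (1.67%). Gdf15, a stress cytokine that acts through a brainstem receptor on appetite, read 0, -1.0 and 0.25 on the untreated arrays, 4.91, 3.03 and 5.36 at 2 weeks and 2.61, 2.23, 6.02 and 2.79 at 4 weeks. Only 2 of the 3 untreated arrays were well above background for it. The difference was 25.7-fold at 2 weeks (log2 4.68, SE 0.99, adjusted p = 0.095) and 12.7-fold at 4 weeks (log2 3.66, SE 0.92, adjusted p = 0.15), with over 2 times the standard error of Nupr1 at each time. Without CPZ array 2 the difference at 2 weeks was 41.8-fold (log2 5.39, adjusted p = 0.092). Without CPZ array 3 the difference at 4 weeks was 6.93-fold (log2 2.79, adjusted p = 0.13), and with normexp the differences were 4.72-fold and 2.89-fold (adjusted p = 0.30 and 0.60). Stc2 (stanniocalcin 2), a secreted glycoprotein, was not well above background on any untreated array. It read 1.93, 0.48 and 0.99 at 2 weeks and 2.38, 0.75, 2.36 and 1.44 at 4 weeks, where untreated readings were 0, -0.70 and 0.05. Set against the lowest signal that counts as above background, it was at least 1.78-fold higher at 2 weeks and at least 2.67-fold higher at 4 weeks (adjusted p = 0.40 and 0.14), and with normexp background correction the log2 differences were -0.10 and 0.11. Vldlr, a lipoprotein and reelin receptor, lay lower, at -0.52, -0.86 and -0.61 at 2 weeks against 0.02, 0 and -0.26 (difference -0.58, SE 0.23, adjusted p = 0.44) and with overlap at 4 weeks (-0.57).

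The amino acid carriers differed among themselves. Slc7a11, the cystine importer, was 4.34-fold above untreated at 2 weeks, with arrays at 2.58, 1.46 and 2.01 over 0.24, 0 and -0.53 (log2 2.12, SE 0.52, adjusted p = 0.14). At 4 weeks its arrays read 0.90, -0.02, 2.07 and 0.28 and overlapped the untreated ones (difference 0.91, adjusted p = 0.62). The 2 dimmer Slc7a11 probes gave 2.65 and 2.20 at 2 weeks. At 4 weeks 1 of them gave 1.46 with overlap, and the other 1.21 with every CPZ array above every untreated one, the lowest at 0.27 over a highest of 0.05. The direct comparison of 4 with 2 weeks gave -1.21 (SE 0.49, unadjusted p = 0.035, adjusted p = 0.46). Slc7a5 (LAT1), the importer of large neutral amino acids, stood at 1.61, 1.25 and 1.99 at 2 weeks and 1.79, 0.58, 2.11 and 1.36 at 4 weeks, over 0.09, 0 and -0.15 (differences 1.64 and 1.48, adjusted p = 0.12 and 0.12). It was called with the slide as a random block at both times (1.23 and 1.67% of all genes) and as a fixed block at 4 weeks (2.01%). Slc3a2 (CD98), the heavy chain shared by LAT1 and xCT, read 1.40, 0.93 and 1.60, then 0.68, 0.38, 1.62 and 0.42, over 0.27, -0.12 and 0 (1.26 and 0.72, adjusted p = 0.18 and 0.49). The LAT1 arrays were clear of the untreated ones at both times and those of CD98 only narrowly at 4 weeks on its brighter probe. Its other probe overlapped there, with a lowest CPZ array of -0.03 and a highest untreated array of 0.01 (difference 0.77). Slc7a1 (CAT1), which imports arginine and lysine, read 0.65, 0.44 and 0.89 and then 0.43, 0.52, 1.17 and 0.39, over -0.24, 0 and 0.08 (0.71 and 0.68, SE 0.25 and 0.23, adjusted p = 0.32 and 0.31). Its dimmer probe gave 0.70 and 1.28 (adjusted p = 0.36 and 0.078), with every CPZ array above every untreated one. Slc7a3, its relative, differed by 0.07 and 0.38 with overlap. Slc6a9 (GlyT1), the glycine transporter, was the exception, at -1.48, -2.13 and -1.73 and then -2.13, -1.25, -1.07 and -1.69, below 0.49, 0 and -0.61 on the untreated arrays. It was 3.35-fold lower at 2 weeks (log2 -1.74, SE 0.36, adjusted p = 0.090) and 2.82-fold lower at 4 weeks (-1.50, SE 0.34, adjusted p = 0.11). At 2 weeks 3 of the 32 genes, Ddit4, Slc6a9 and Vldlr, had every CPZ array below every untreated array (8.54% of all genes), and at 4 weeks Slc6a9 alone did (4.41%).

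None of the 9 tested synthesis enzymes was called in the fit reported here. Mthfd2 was called at 4 weeks with the slide as a fixed block (2.01% of all genes). Cth was called at 2 weeks with the slide as a random block (1.23%). It was also called there with only probes well above background on every array of the fit (0.462%). Cth, which makes cysteine from cystathionine, read 1.67, 1.52 and 1.84 at 2 weeks and 1.05, 1.08, 1.63 and 1.13 at 4 weeks, over 0.73, -0.05 and 0 (differences 1.45 and 1.00, SE 0.26 and 0.24, adjusted p = 0.070 and 0.13), or 0.40 and 0.19 with normexp. Aldh18a1, the first enzyme of proline synthesis, stood at 0.96, 0.86 and 1.13 and then 0.51, 0.57, 1.45 and 0.62, over 0.15, -0.44 and 0 (1.08 and 0.89, adjusted p = 0.16 and 0.23), or 0.21 and 0.20 with normexp. Pck2, the mitochondrial enzyme that makes phosphoenolpyruvate, differed by 0.60 and 0.79 with no overlap at either time (adjusted p = 0.24 and 0.11). Asns, which makes asparagine and is a textbook ATF4 target, read only -0.14, 0.43 and 0.44 at 2 weeks (difference 0.35, overlapping) and 0.56, 0.76, 0.66 and 0.55 at 4 weeks (0.74, SE 0.21, adjusted p = 0.20, no overlap). In the serine, glycine and one-carbon branch no gene stood apart at 2 weeks. Phgdh, the first enzyme of serine synthesis, gave -0.71 and -0.24, Psat1, the second, -0.42 and -0.51, and Psph, the last, 0.50 and 0.35. The mitochondrial folate enzymes gave 0.29 and 0.38 (Shmt2) and 0.72 and 0.92 (Mthfd2, apart from untreated at 4 weeks). None of these 5 genes reached 2-fold at either time, and the median of the 5 was 0.29 at 2 weeks and 0.35 at 4 weeks.

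**Figure D4:**
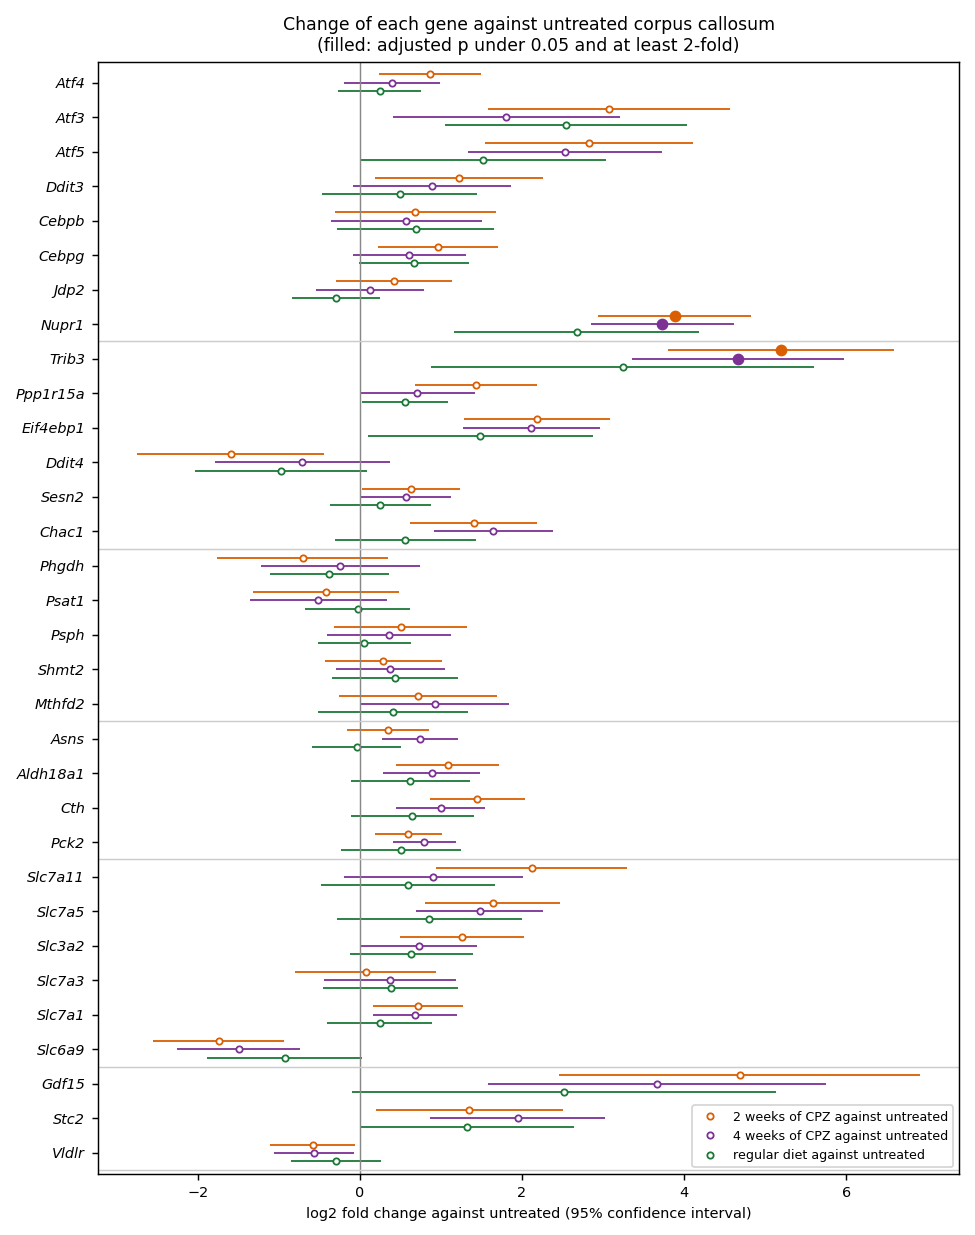
Log2 fold change against untreated of each of the 32 genes after 2 weeks of CPZ (orange), 4 weeks of CPZ (purple) and on regular diet (green), with 95% confidence intervals from limma; filled points passed the threshold and horizontal lines part the roles. Trib3 and Nupr1 hold the only filled points, at 2 and 4 weeks, and the intervals on regular diet are wider for Trib3, Nupr1, Atf5 and Eif4ebp1 than at 4 weeks.

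Between 4 and 2 weeks of CPZ none of the 32 genes was called in either direction, where no gene of the array was called higher and 0.0146% were called lower. The median difference was -0.13 (-0.02 over all genes), 11 genes lay above 0, and 2 of the 32 (6.25%) had unadjusted p under 0.05, where 11.2% of all genes did. These were Slc7a11 and Ppp1r15a, with lower means at 4 weeks. Over all genes 274 were at least 2-fold higher and 3290 at least 2-fold lower at 4 weeks. The 95% confidence interval of the difference was -1.84 to 0.77 for Trib3 and -1.04 to 0.73 for Nupr1. On the brightest probe of each gene, Asns was the 1 gene with every 4-week array above every 2-week array (5.77% of all genes), as the dimmer Slc7a1 probe also was (lowest 0.74 over a highest of 0.65), and no gene of the 32 had every 4-week array below (9.35%).

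On regular diet the 6 arrays differed widely, so the answer to whether the rise had ended differed from array to array. Trib3 read 5.22, 5.88 and 5.16 on arrays 1, 2 and 3 and 1.05, 1.28 and 0.67 on arrays 4, 5 and 6. The first 3 values lay within the range of the 4-week CPZ arrays (4.01 to 6.06), and the last 3 lay below it yet above the highest untreated array (0.10). Nupr1 read 4.18, 4.60, 3.62, 1.35, 1.37 and 1.42 on arrays 1 to 6, with the same 3 arrays in the 4-week range and the same 3 between it and the untreated arrays. Gdf15 read 4.02, 4.69, 4.61, 0.77, -0.38 and -0.11, and its arrays 5 and 6 were inside the untreated range. Atf5 read 2.55, 3.04, 3.16, 0.16, 0.36 and 0.72, with the last 3 inside it as well. Atf3 stayed above every untreated array on all 6, at 3.46, 4.03, 2.72, 1.27, 1.58 and 0.97, and its values on arrays 4, 5 and 6 were within the 4-week range of 0.92 to 3.17. The labels do not say which arrays followed 2 and which followed 14 days of regular diet, so the time behind each value is not known here and the arrays were not averaged or tested in subsets.

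Counted over all 32 tested genes, arrays 1, 2 and 3 had 25, 25 and 26 genes above every untreated array, while arrays 4, 5 and 6 had 7, 4 and 6. Over all genes tested the share above every untreated array was 23.8, 25.2 and 20.2% on arrays 1 to 3 and 16.6, 15.4 and 21.7% on arrays 4 to 6. For 17 of the 32 genes exactly 3 regular diet arrays were above every untreated array, and these were arrays 1, 2 and 3 in all 17. Exactly 3 arrays were above for 7.0% of all genes, and arrays 1, 2 and 3 alone for 1.77%. Against the 4-week CPZ arrays, 21, 23 and 23 of the 32 genes lay below every one of them on arrays 4, 5 and 6, and 3, 3 and 1 on arrays 1, 2 and 3. Over all genes tested the share below every 4-week array was 17.4, 17.4 and 23.7% on arrays 4 to 6 and 23.4, 25.4 and 15.6% on arrays 1 to 3. Of the 3 genes below every untreated array at 2 weeks of CPZ, Slc6a9 read -1.78, -1.69 and -1.74 on arrays 1 to 3 and -0.24, -0.60 and 0.25 on arrays 4 to 6, and Vldlr read -0.92, -0.95 and -0.53 and then 0.05, 0.01 and 0.10. Ddit4 divided less cleanly, at -2.32, -2.18, -1.09, -1.08, -0.66 and -0.24. Ppp1r15a hardly divided, at 0.87, 1.02, 0.72, 0.71, 0.47 and 0.53, and 4 of its 6 arrays stayed above every untreated array. Jdp2 was below every untreated array on 5 of the 6 arrays, and array 3 read 0.27. Asns lay below every 4-week array on all 6, at 0.18, 0.11, 0.43, -0.34, -0.33 and -0.93, the only gene of the 32 to do so (3.48% of all genes), and no gene lay above every 4-week array on all 6 (4.98%).

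Taken as the 1 group the labels give, regular diet differed from untreated in none of the 32 genes at the threshold, where 0.864% of all genes were called higher and none lower. Over all genes 1788 were at least 2-fold higher and 233 at least 2-fold lower. With normexp the calls over all genes fell from 178 to 36. Trib3 was 9.44-fold above untreated (log2 3.24, SE 1.11, adjusted p = 0.29), Nupr1 6.38-fold (2.67, SE 0.71, adjusted p = 0.12) and Atf3 5.84-fold (2.55, SE 0.70, adjusted p = 0.14). With normexp these log2 differences were 1.67 for Trib3, 2.30 for Nupr1 and 1.09 for Atf3. With the replicate number as a block they were larger, at 4.96 for Trib3, 3.73 for Nupr1 and 3.42 for Atf3, and none was called. On their brightest probes these were the 3 genes with all 6 arrays above every untreated array (5.08% of all genes), and no gene had all 6 below (3.41%). The dimmer Trib3 probe overlapped the untreated arrays (difference 1.40). The standard error of Trib3 was 1.11 here against 0.58 at 4 weeks, and its SD between arrays was 2.44 against 0.96. The median difference over the 32 genes was 0.53, and 7 (21.9%) had unadjusted p under 0.05, beside 10.5% of all genes. Against 4 weeks of CPZ none was called, where 0.00485% of all genes were called higher and none lower, and the median was -0.31, with 24 of 32 genes below 0. Only 2 of the 32 (6.25%) had unadjusted p under 0.05, where 26.6% of all genes did. Of these Asns gave -0.78 (SE 0.23, unadjusted p = 0.0047, adjusted p = 0.10) and Chac1 -1.08 (SE 0.37, unadjusted p = 0.011, adjusted p = 0.12). Trib3 gave -1.42 with an interval of -3.58 to 0.74, and -0.31 with the replicate number as a block. Over all genes 3185 were at least 2-fold higher and 109 at least 2-fold lower against 4 weeks. On the 3 slides that held both groups, the median over the 32 genes ran from -0.86 to 0.39 for regular diet against 4 weeks and from -0.28 to 0.80 against untreated.

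**Figure D5:**
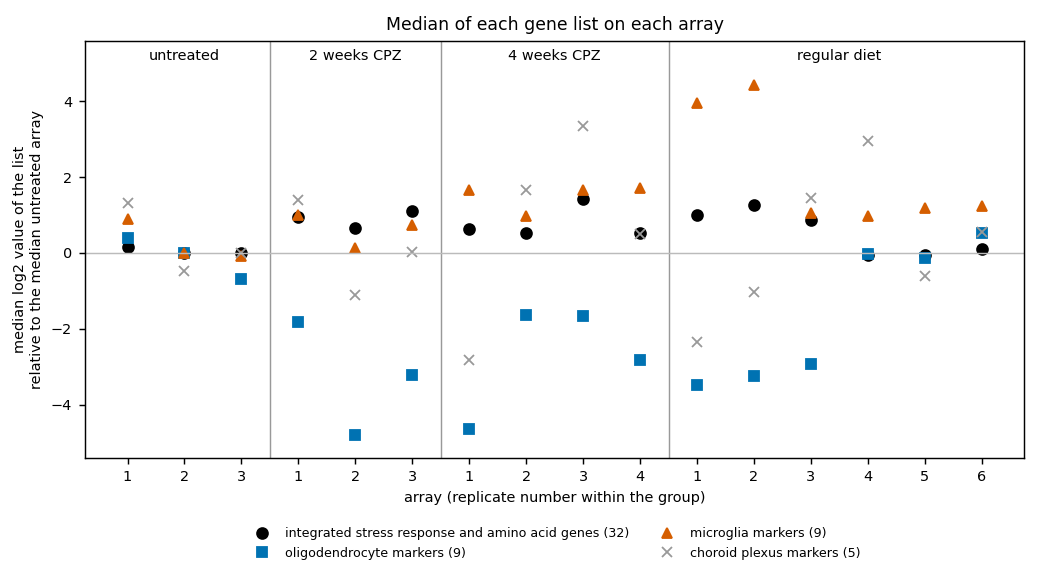
Median log2 value, relative to the median untreated array, of the 32 integrated stress response and amino acid genes and of oligodendrocyte, microglia and choroid plexus markers on each of the 16 arrays (columns, replicate numbers within the labelled groups). Regular diet arrays 1 to 3 show stress response medians of 0.86 to 1.26 and oligodendrocyte medians of -3.50 to -2.92, arrays 4 to 6 lie between -0.13 and 0.52 for both, and microglia markers are highest on regular diet arrays 1 and 2.

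Marker genes of other cells moved with some of these values. The median over the 32 genes was 1.01, 1.26, 0.86, -0.05, -0.06 and 0.09 on regular diet arrays 1 to 6, and the median of the 9 tested oligodendrocyte markers was -3.50, -3.25, -2.92, -0.02, -0.13 and 0.52. Microglia markers (9 tested) were at 3.95 and 4.42 on arrays 1 and 2 but at 1.06 on array 3 and at 0.99 to 1.24 on the other 3. On the CPZ arrays the oligodendrocyte median ran from -4.80 to -1.83 at 2 weeks and from -4.65 to -1.63 at 4 weeks, the microglia median from 0.12 to 1.00 and from 0.98 to 1.71, and the astrocyte median (8 tested) from 0.24 to 0.53 and from 0.11 to 1.01. On the untreated arrays these medians ran from -0.69 to 0.40, from -0.07 to 0.91 and from -0.26 to 0.56. The untreated range thus overlapped the microglia range at 2 weeks and the astrocyte range at both times. The third 4-week array had the highest median of the 32 genes (1.43, beside 0.62, 0.53 and 0.53) and the highest choroid plexus median of any array (3.36, 5 tested markers). Regular diet array 4, with a choroid plexus median of 2.95, had a stress response median of -0.05. Neuron markers (8 tested) ran from -1.08 to 0.58 over all arrays, endothelial ones (6) from -0.92 to 0.43, oligodendrocyte precursor ones (5) from -0.91 to 0.35 and red blood cell ones (3) from -0.98 to 1.37. The part of cell composition in the results was not tested.

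The neighbouring pathways had smaller medians than the 32 genes at both CPZ times, in lists chosen with earlier results of these data known. Of the 11 tested genes for eIF2 kinases, eIF2 and its exchange factor eIF2B none was called on CPZ, with medians of 0.06 at 2 weeks and -0.06 at 4 weeks. Eif2ak2 (PKR), the double-stranded RNA sensor, which interferon induces, differed by 1.76 and 1.49 on CPZ (adjusted p = 0.16 and 0.21) and was 4.39-fold higher on regular diet (log2 2.13, SE 0.40, adjusted p = 0.021), the 1 call in these lists, where 0.864% of all genes were called higher. The call was lost with normexp (log2 0.62, adjusted p = 0.15), with the replicate block (adjusted p = 0.079) and in the test over labelled groups with Tukey's comparison (adjusted p = 0.11). It was also lost without untreated array 1, 2 or 3 or regular diet array 1 (adjusted p = 0.084, 0.063, 0.17 and 0.053). Eif2ak3 (PERK), the kinase for unfolded protein in the endoplasmic reticulum, gave 0.03 and -0.17, and Eif2ak4 (GCN2), the sensor of uncharged transfer RNA, 0.26 and -0.19. The 13 aminoacyl-tRNA synthetases had medians of 0.26 and 0.40, with 10 and 12 of 13 above 0 and 6 and 3 with every CPZ array above every untreated array (8.24 and 5.36% of all genes). The 15 genes of the XBP1 and ATF6 arms of the unfolded protein response had medians of 0.34 and 0.20, with Hspa5 (BiP), the chief chaperone of the endoplasmic reticulum, at 0.53 and 0.20. Of these 15 none was called, and 1 had unadjusted p under 0.05 at 2 weeks and none at 4 weeks. The 8 mitochondrial chaperones and proteases had medians of 0.17 and 0.14. The 10 other amino acid genes downstream of ATF4 had medians of 0.45 and 0.40, led by the neutral amino acid carriers Slc1a5 (1.91 and 1.44) and Slc1a4 (0.90 and 0.79), neither of them called.

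The log2 differences of genes with and without the promoter letters overlapped. The 9 tested genes with a match had log2 differences from -0.58 to 5.19 at 2 weeks (median 1.40, 5 at least 2-fold higher), and the 19 tested genes with a window but no match from -1.74 to 4.68 (median 0.72, 7 at least 2-fold higher). At 4 weeks the medians were 0.91 and 0.61. Gdf15 and Atf5 were high without a match in this window, while Vldlr (-0.58) and Asns (0.35) hold 1 each.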

How the data were processed

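The series holds 16 single-colour Agilent arrays of mouse corpus callosum RNA, 3 untreated, 3 after 2 weeks of CPZ, 4 after 4 weeks and 6 on regular diet, grouped by the labels. The authors read scanned intensities with Agilent Feature Extraction 11.0.1.1, per the file headers (the methods name an earlier version), and deposited those intensities and a table of log2 values, scaled in GeneSpring by the 75th percentile and centred, probe by probe, on the median untreated array. The table was the main source. Scanner files gave the flags for signal above background and were matched to the table's columns by correlation over 16805 probes (best r at least 0.999, next at most 0.89). The 75th percentile signal of an array ran from 161.9 to 366.1, and the number of arrays limits the precision.

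A probe was kept if all arrays of any 1 group read it well above background (27779 probes) and tested with limma 3.58.1 in R 4.3.3, with Benjamini-Hochberg adjustment over all of them. A call needed adjusted p under 0.05 and at least 2-fold. The CPZ comparisons were fitted on 10 arrays and the regular diet comparisons on all 16. A gene was represented by its brightest tested probe. Genes were given in full if called, or if all CPZ arrays at both times lay on one side of the untreated ones, up to 14 taken from the highest signed mean difference down, which left out Pck2 and Slc6a9. Values by array of other members (such as Slc6a9, Slc7a11, Ddit4, Vldlr and Asns) and the genes named in the neighbouring lists, except Eif2ak2, were chosen after their values were seen. The genes and lists were chosen with earlier results of these data known. The fits were tested on simulated data. Alternatives were other signals, scalings, filters, slide and replicate blocks, the methods' ANOVA and single omissions. Since mean signals are not analysed here, normexp (offset 50) used median signals.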

Additional observations from a re-analysis of the deposited data

Results flagged for a closer look

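In 11 of 66 sets of values examined (each tested gene, and the median over the 32, in the groups of 4 and of 6 arrays), the highest or lowest array stood apart from the others by more than the 95% limit of Dixon's test. Chance alone passes that limit in about 1 of 20 independent sets. These sets come from the same arrays and are not independent, so their count cannot be set against that rate. In 10 of the 11 the array was CPZ array 3 of the 4-week group, and it was the highest. It read 6.06 for Trib3 (next highest 4.27), 6.02 for Gdf15 (2.79), 3.17 for Atf3 (1.17), 1.72 for Mthfd2 (0.44), 1.63 for Cth (1.13), 1.45 for Aldh18a1 (0.62), 1.41 for Cebpg (0.44), 1.23 for Shmt2 (0.28) and 1.17 for Slc7a1 (0.52). The median over the 32 genes was 1.43 there, with 0.62 the next highest. The choroid plexus marker median on that array was 3.36, and on 4-week array 2, where it was 1.65, the median over the 32 genes was 0.53. The part of tissue other than corpus callosum in these values was not tested.

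The eleventh was Jdp2 on regular diet array 3, at 0.27, where the other 5 arrays read -0.60 to -0.40.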

How the results depend on the processing

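With the scanner files taken as recorded instead of matched to the table, the named genes turned sign and none of the 32 was called (0 at 2 weeks and 0 at 4 weeks). At 2 weeks the log2 differences were then Trib3 -1.27, Gdf15 -1.20, Atf5 -0.84, Eif4ebp1 -0.80, Cth -0.79, Slc7a5 -0.63, Atf3 -0.49, Slc3a2 -0.47, Nupr1 -0.46, Chac1 -0.37, Aldh18a1 -0.35, Cebpg -0.32, Slc7a1 -0.29 and Stc2 -0.17. At 4 weeks they were Gdf15 -2.52, Trib3 -2.10, Atf5 -1.69, Nupr1 -1.44, Atf3 -1.03, Eif4ebp1 -1.02, Cth -0.93, Slc7a5 -0.78, Slc3a2 -0.74, Chac1 -0.67, Stc2 -0.59, Cebpg -0.53, Aldh18a1 -0.49 and Slc7a1 -0.28. For 4 against 2 weeks Chac1 was -0.31, Stc2 -0.42 and Slc7a1 0.011. On regular diet against untreated Atf3 was -0.43, Cebpg -0.30, Slc3a2 -0.29, Gdf15 -0.20, Cth -0.10 and Atf5 -0.039. On regular diet against 4 weeks Trib3 was 2.73, Gdf15 2.32, Nupr1 2.16, Atf5 1.66, Stc2 1.21, Eif4ebp1 1.17, Chac1 1.14, Slc7a5 0.96, Cth 0.83, Aldh18a1 0.51, Slc3a2 0.44 and Slc7a1 0.39. The median over the 32 genes was -0.34 at 2 weeks, -0.56 at 4 weeks, -0.10 for regular diet against untreated and 0.44 against 4 weeks. Slc6a9, lower on CPZ as reported, was 0.55 at 2 weeks and 0.19 at 4 weeks. This alternative puts arrays of different columns into a group by construction.

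With the matched arrays, 9 genes were called at 2 weeks with the slide as a random block and 6 as a fixed block, and 6 and 9 at 4 weeks. The random block called Atf3, Atf5, Cth, Eif4ebp1, Gdf15, Nupr1, Slc6a9, Slc7a5 and Trib3 at 2 weeks. At 4 weeks it called Atf5, Eif4ebp1, Nupr1, Slc7a5, Stc2 and Trib3. Over all genes the random block called 1.23% at 2 weeks and 1.67% at 4 weeks and the fixed block 0.519 and 2.01%, beside 0.204 and 0.17% as reported. With a filter on every array of the fit 4 were called at 2 weeks (0.462% of all genes) and 3 at 4 weeks (0.319%). Beside Trib3 and Nupr1 these were Cth and Eif4ebp1 at 2 weeks and Eif4ebp1 at 4 weeks. With a filter on 1 of the 2 groups 4 were called at 4 weeks (1.1%), with Chac1 and Eif4ebp1 beside Trib3 and Nupr1. With normexp 3 were called at 2 weeks (0.374%, Atf5, Nupr1 and Trib3) and 1 at 4 weeks (0.189%). With all 16 arrays in the fit 0 and 0 were called (0.116 and 0.0146% of all genes), and in the test over labelled groups with Tukey's comparison 0 and 0 (0.068 and 0.0291%). Slc6a9 was called lower with the slide as a fixed block at both times (log2 -2.04 and -1.33, adjusted p = 0.047 and 0.047) and as a random block at 2 weeks (-1.84, adjusted p = 0.037). The cause was not tested. Among the 14 genes whose alternatives are given here, signs turned with normexp for Stc2 (-0.10 at 2 weeks, -0.24 on regular diet against untreated), Aldh18a1 (-0.10) and Cth (-0.10, both on regular diet against untreated) and Slc3a2 (0.0062, regular diet against 4 weeks), and with quantile normalization for Slc3a2 (0.094, the same comparison). Of the other genes Cebpb (-0.065), Asns (0.046) and Psat1 (0.096) turned with normexp on regular diet against untreated, Cebpb (-0.11) against 4 weeks, and Cebpb (0.038) and Vldlr (-0.041) between 4 and 2 weeks. With the slide as a fixed block Atf5 was 0.22, Eif4ebp1 0.40 and Nupr1 0.078 for 4 against 2 weeks and Cebpg -0.052 for regular diet against 4 weeks, and as a random block Eif4ebp1 was 0.10 for 4 against 2 weeks. With normexp the median over the 32 genes at 2 weeks was 0.59, and the median of all genes moved from 0.05 to -0.07 at 2 weeks, from -0.01 to -0.15 on regular diet against untreated and from 0.03 to -0.08 against 4 weeks. Over all genes the calls for regular diet against 4 weeks went from 1 higher and 0 lower to 145 higher and 122 lower with quantile normalization, and at 2 weeks from 16 and 26 to 15 and 62 with normexp. Calls over all genes ranged over the alternatives other than single omissions from 0 to 253 at 2 weeks (42 as reported), 0 to 415 at 4 weeks (35), 0 to 55 between them (3), 8 to 264 on regular diet against untreated (178) and 0 to 267 against 4 weeks (1).

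The replicate numbers of the labels did not pair the arrays, since 5 of 19 pairs with the same number correlated above 0.1 (-0.804 to 0.34). With the replicate block 0 of the 32 genes, and 0 of all genes, were called at 2 weeks and 0 at 4 weeks, the median on regular diet against untreated was 1.00, and signs turned for Eif4ebp1 (0.020) and Slc7a1 (0.043) between 4 and 2 weeks and for Gdf15 (0.11) and Slc3a2 (0.20) on regular diet against 4 weeks.

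With each array left out in turn, 0 to 2 genes were called at 2 weeks and 0 to 3 at 4 weeks, and the median over the 32 genes ran from 0.84 to 1.09, 0.50 to 0.86, -0.35 to 0.03 (4 against 2 weeks), 0.36 to 0.64 (regular diet against untreated) and -0.41 to -0.06 (against 4 weeks). Signs turned for Cebpg (-0.094 to 0.30) and Slc3a2 (-0.23 to 0.19) on regular diet against 4 weeks, and for Eif4ebp1 (-0.41 to 0.14), Nupr1 (-0.43 to 0.13), Slc7a1 (-0.22 to 0.077) and Slc7a5 (-0.37 to 0.14) between 4 and 2 weeks. Over all genes the calls then ranged from 1 to 43 at 2 weeks, 0 to 143 at 4 weeks, 0 to 4 between them, 4 to 171 on regular diet against untreated (4 without untreated array 3) and 0 to 1435 against 4 weeks (6.97% of all genes without CPZ 4-week array 1, and 1.05% without array 3). No gene of the 32 was called in the other 3 comparisons under any alternative run.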
